A study of Mus musculus with 12 samples.

Results

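The genes described here, the members, are 37 interferon-stimulated and antigen presentation genes of the mouse, listed by name and grouped by role. The list was drawn up with earlier results of these data known. Of the 41091 gene IDs in each count table, 36 belonged to members, since Gbp6 had no matching ID. Of these 36, 33 passed the filter on low counts at 1 hr (Oas1a, Mx1 and Ifi44 did not) and all 36 passed at 3 hr and in the model of the 4 groups.

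RNA-seq counts came from acute hippocampal mini-slices, slices whose dentate gyrus had been cut away, from C57BL/6 mice (wild type, 2 to 3 months old), left to recover for 2 hr. Chemical long-term potentiation (cLTP), a lasting rise of synaptic strength, was induced with 50 uM forskolin, which activates adenylyl cyclase, for 5 min and then with forskolin, 30 mM KCl and 10 mM calcium to a total of 10 min, whereas in control slices the vehicle, 0.2% DMSO, was applied over the same 10 min. Freezing followed after 1 hr or 3 hr, so that the 12 libraries form 4 groups with 3 animals in each. An animal contributed both a cLTP and a control library, and only preparations with an Arc response to cLTP were sequenced. The animals of 1 hr and 3 hr were treated as distinct, so time after treatment cannot be told apart from animal or preparation, and no slices frozen at the start were analysed here. 1 hr control replicate 2, which stood apart in the clustering of the study, was left out of all fits, and its values are given beside the rest.

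Interferons are secreted proteins that cells release when nucleic acid sensors detect foreign or misplaced RNA and DNA. Type I interferons act through the receptor pair Ifnar1 and Ifnar2 and the kinases Jak1 and Tyk2 on a complex that includes Stat2 and Irf9 and binds the interferon-stimulated response element (ISRE), whereas interferon gamma acts through the gamma-activated sequence (GAS). The products block viral replication and load peptides on major histocompatibility complex (MHC) class I molecules. In the brain, microglia, endothelium and other glia respond strongly to interferon, and MHC class I molecules are also known from neurons.

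The promoters of the members are shown first, because the shared element that names the family can be seen in them. RefSeq promoters of 300 bases (250 before to 50 after the start, build GRCm38.p6) were on hand for 29 of the 37 members. The ISRE core was searched on both strands as GAAANNGAAA, and it was found in 15 of these 29 members against 3.99% of the 27025 genes in the table. In the following stretches, written 5′ to 3′ on the strand of the gene and ending before the RefSeq start, capitals mark every match of the core, and a core on the opposite strand reads as its reverse complement.
Isg15: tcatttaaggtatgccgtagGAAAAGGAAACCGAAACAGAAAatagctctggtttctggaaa
Ifit1: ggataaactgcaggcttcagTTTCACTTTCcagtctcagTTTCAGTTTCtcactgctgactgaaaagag
Ifit3: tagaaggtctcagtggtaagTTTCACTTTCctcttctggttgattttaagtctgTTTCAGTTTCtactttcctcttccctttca
Ifit3b: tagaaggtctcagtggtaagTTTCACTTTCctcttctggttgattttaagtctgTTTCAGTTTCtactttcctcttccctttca
Rsad2: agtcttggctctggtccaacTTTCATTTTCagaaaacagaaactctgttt
Gbp3: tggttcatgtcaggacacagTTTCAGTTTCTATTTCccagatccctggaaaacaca
Gbp7: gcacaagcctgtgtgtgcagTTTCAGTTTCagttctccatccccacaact
B2m: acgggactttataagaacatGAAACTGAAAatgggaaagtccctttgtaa

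These stretches lie at chr4:156200855-156200916 on the minus strand (Isg15), chr19:34640765-34640833 (Ifit1), chr19:34583353-34583436 (Ifit3), chr19:34607749-34607832 (Ifit3b), chr12:26456543-26456592 on the minus strand (Rsad2), chr3:142559979-142560034 (Gbp3), chr3:142530263-142530312 (Gbp7) and chr2:122147528-122147577 (B2m), the others on the plus strand. Isg15 held 3 overlapping cores, starting 78, 72 and 66 bases before the start. The printed stretches of Ifit3 and Ifit3b were the same 84 bases, and both genes held 2 cores. Gbp7 and B2m are shown because they hold the core as well and, as described next, did not rise.

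The gamma-activated sequence, searched as TTCNNNGAA, which reads the same on both strands, was found in 6 of the 29 members (Bst2, Gbp7, Ifi35, Ifit2, Irf1 and Oas1a) against 9.55% of genes. The cAMP response element TGACGTCA, the target of CREB, which forskolin is known to activate, was found in 0 of the 29 members and 2.03% of genes. The match of Irf1 lies at chr11:53769924-53769932 on the plus strand, and is printed in capitals within the stretch chr11:53769904-53769952.
Irf1: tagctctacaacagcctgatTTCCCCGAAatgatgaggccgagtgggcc

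In Bst2 the GAS match overlapped an ISRE core. These matches describe letters in a window of 300 bases and not binding. Among the 15 members with a promoter that rose with time in both treatments, described next, 7 held the ISRE core, and among the other 14 it was held by 8.

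**Figure D1:**
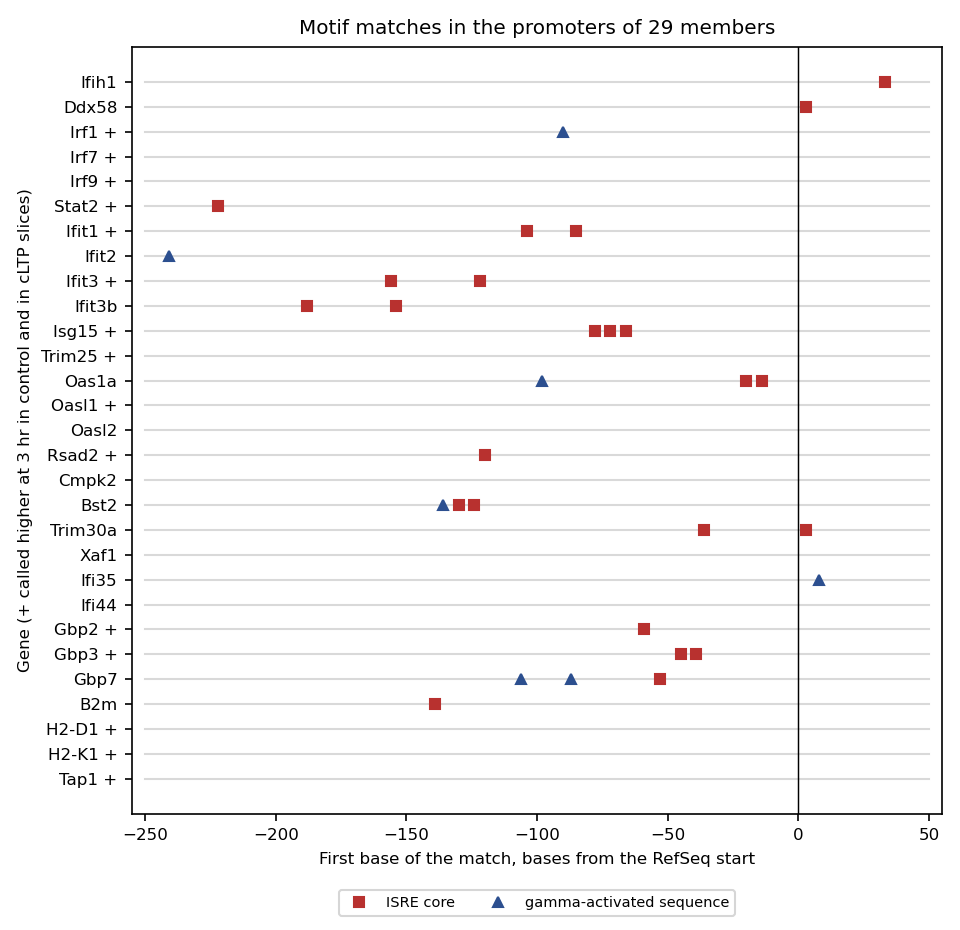
Position of each ISRE core (squares) and GAS match (triangles) in the promoters of 29 members, in bases from the RefSeq start (vertical line), 1 row a gene. Genes marked + (called higher at 3 hr in control and in cLTP slices) are found both with and without a match.

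Levels spanned a wide range. On the scale of CPM (counts scaled to a common library size) per kilobase of exon, B2m, the light chain shared by all MHC class I molecules, was highest at 95.4 on average over the 12 libraries, followed by the heavy chain H2-D1 at 13.8 (range 10.1 to 17.8), Ifi27 at 13.5 (9.19 to 17.8), Irf1 at 10.2 (6.15 to 16.5), H2-K1 at 9.78 (6.89 to 14.2) and Gbp2 at 9.47 (5.35 to 14.4). The ranges of these 5 genes below B2m overlapped, so their order is not firm. Ifi44 was lowest at 0.0477 CPM per kilobase, with 1 to 33 counts a library.

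The first question was whether cLTP changed these genes. No member passed the test: 0 of 33 members were called between cLTP and control slices at 1 hr, and 0 of 36 at 3 hr (edgeR's quasi-likelihood test, a call being an adjusted p under 0.1 with a fold change over 1.2). Of all genes tested, 0.789% were called at 1 hr and 6.6% at 3 hr. At an unadjusted p under 0.05 there was 1 member at 1 hr against 6.71% of all genes, and there were 5 at 3 hr against 20.2% of all genes. DESeq2 and limma-voom also called 0 members at both times. The median log2 fold change of the members was 0.03 at 1 hr and 0.02 at 3 hr, beside 0.00 and 0.00 over all genes.

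The member with the smallest p at 1 hr was Gbp2, a guanylate-binding protein that attacks the vacuoles of intracellular pathogens, at 0.43 ± 0.18 (log2 fold change ± SE, adjusted p = 0.655). Its levels were 15.5, 26.2 and 17.2 CPM in cLTP replicates 1, 2 and 3 against 13.5 and 15.8 CPM in the fitted controls and 16.6 CPM in the control left out. Only cLTP replicate 2 stood well above the controls. When genes of low count were kept in the test, Gbp2 alone was called (0.43, adjusted p = 0.0132).

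At 3 hr the 5 members with an unadjusted p under 0.05 did not share a direction. The RNA sensor Ddx58 (RIG-I) stood at -0.30 ± 0.11, Irf1 at -0.32 ± 0.12, the mitochondrial nucleotide kinase Cmpk2 at -0.20 ± 0.07 and Gbp7 at -0.34 ± 0.12, while Rtp4, an interferon-induced chaperone of membrane receptors, stood at 0.35 ± 0.13, with adjusted p from 0.155 to 0.193. Cmpk2 was at 16.6, 18.7 and 17.6 CPM after cLTP against 20.8, 21.1 and 19.6 CPM in controls, and Rtp4 at 4.46, 3.98 and 4.43 CPM against 3.12, 3.90 and 3.17 CPM, so that in both genes the groups did not overlap. Ifit2 also did not overlap at 3 hr, at 14.2, 14.3 and 14.0 CPM after cLTP against 16.5, 15.4 and 14.3 CPM, but by a margin in the last digit (-0.11 ± 0.08). No other member was without overlap at 3 hr, while at 1 hr 1 of 33 members was higher and 4 were lower without overlap. The share of all genes without overlap between cLTP and control was not counted, so these counts cannot be weighed. With the animal as a replicate block, which the shared animals allow, 3 of 36 members were called lower at 3 hr, against 2.43% of all genes in that fit: Ddx58 (-0.30, adjusted p = 0.0695), Irf1 (-0.30, adjusted p = 0.0720) and Gbp7 (-0.33, adjusted p = 0.0532).

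Which members passed the threshold varied with the libraries, while the estimates of Ddx58 (-0.40 to -0.25), Irf1 (-0.46 to -0.21), Gbp7 (-0.44 to -0.25) and Rtp4 (0.29 to 0.46) kept their sign in all 15 alternatives run at 3 hr. Without 3 hr control replicate 1, Irf1 was called lower after cLTP (-0.46, adjusted p = 0.0654). Without 3 hr cLTP replicate 3, Ddx58 (-0.40, adjusted p = 0.0616) and Gbp7 (-0.43, adjusted p = 0.0984) were called lower. Without 3 hr cLTP replicate 2, by contrast, Ifih1 (MDA5, a sensor of long double-stranded RNA; 0.36, adjusted p = 0.0850), Rtp4 (0.41, adjusted p = 0.0984) and Ifi44 (1.44, adjusted p = 0.0202) were called higher.

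3 hr cLTP replicate 3 stood above both other libraries of its group for 29 of 36 members and was the highest of all 12 libraries for 21. Its ratio to the mean of the other 2 libraries was above 1.5 for 10 members and reached 3.32 for Oasl2 (2.56 against 0.771 CPM), 2.53 for Mx1, 2.38 for Rsad2 and 2.36 for Isg15. The median ratio over the 36 members was 1.29. Within animals, the median log2 ratio of cLTP to control at 3 hr was -0.034, -0.243 and 0.167 in animals 1, 2 and 3, and at 1 hr it was -0.065, 0.124 and -0.006. The control of animal 2 at 1 hr is the library left out of the fits, and its ratio is the only positive one at that time. At 3 hr, 4 of 36 members were higher and 8 lower after cLTP in all 3 animals, against 21.5% and 26% of all genes, and at 1 hr 4 were higher and 4 lower, against 13.2% and 14% of all genes.

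The change of the cLTP effect from 1 hr to 3 hr was called for 0 of 36 members, against 0.0592% of all genes. Its smallest p among the members belonged to Irf1 (-0.44 ± 0.20, adjusted p = 0.737), which was 0.13 ± 0.12 higher after cLTP at 1 hr and 0.32 ± 0.12 lower at 3 hr, neither of them called. DESeq2 and limma-voom called 0 members here too. Among the 30 members with a mean of at least 1 CPM, the median SE was 0.18 at 1 hr and 0.14 at 3 hr, and 29 of the 30 had an estimate within 0.5 of zero on the log2 scale at each time. The exceptions were Oasl1 at 1 hr (0.82 ± 0.48) and Rsad2 at 3 hr (0.51 ± 0.33). Among members below 1 CPM, Isg15 stood at -0.68 ± 0.43 at 1 hr and Ifi44 at 0.97 ± 0.54 at 3 hr, neither of them called.

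**Figure D2:**
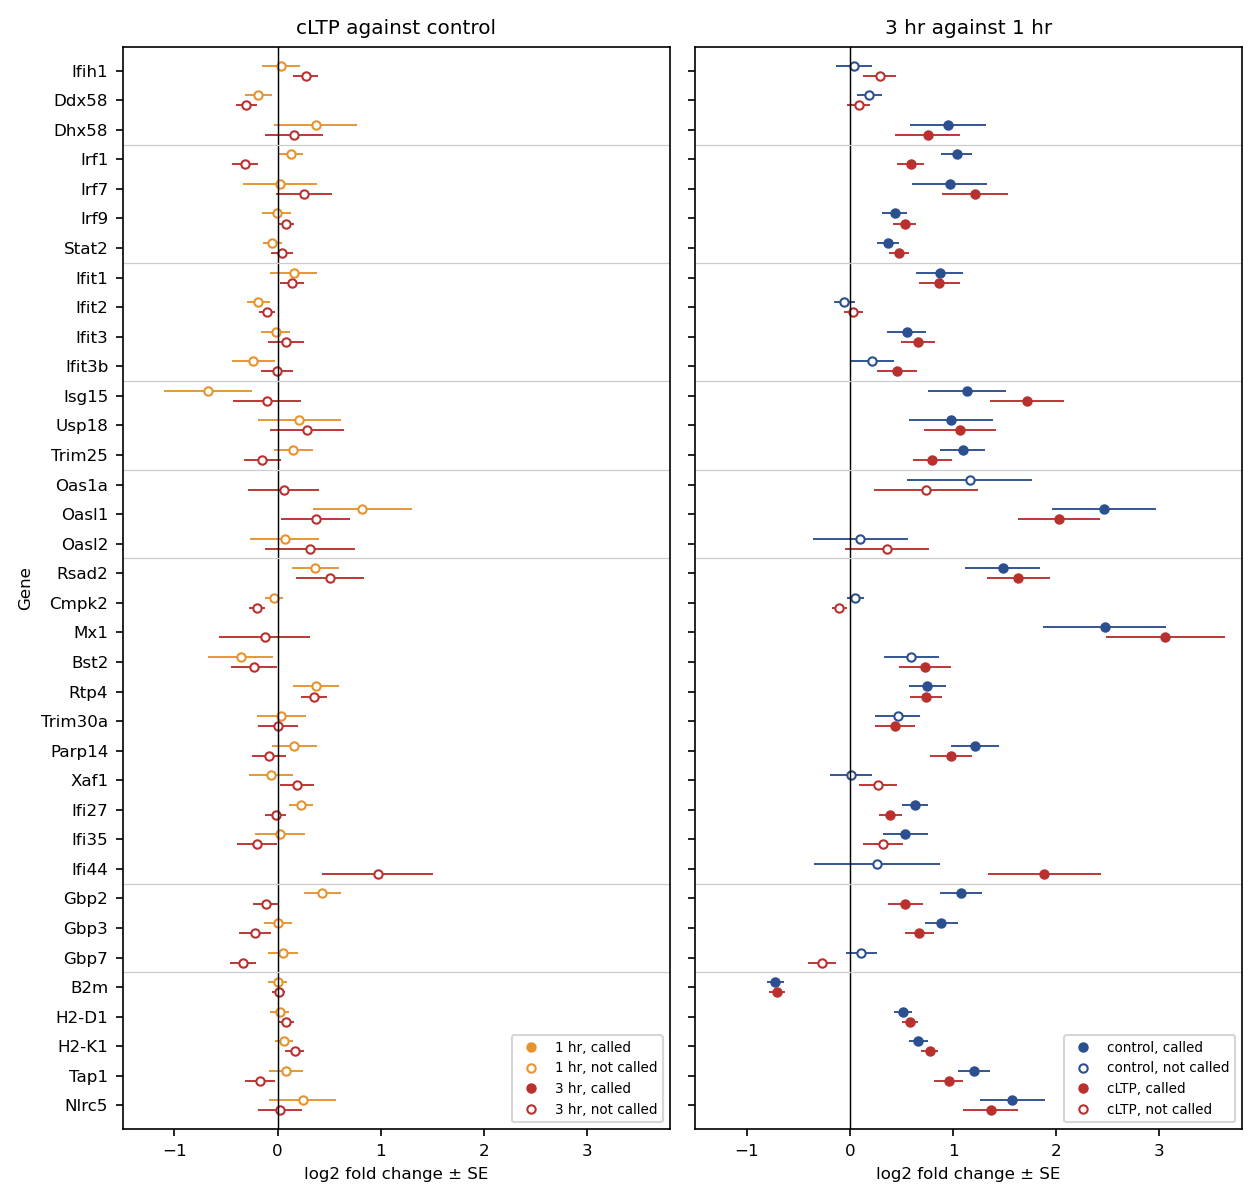
Log2 fold change ± SE of the 36 members, 1 row a gene, for cLTP against control at 1 hr and 3 hr (left) and for 3 hr against 1 hr in control and cLTP slices (right); filled points were called. No point is filled on the left, while on the right 24 are filled for control and 27 for cLTP slices, all of them above zero but B2m.

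The second comparison was between the time points, within each treatment. In control slices 23 of 36 members were called higher and 1, B2m, lower at 3 hr than at 1 hr, against 16.1% of all genes called higher and 16.8% called lower. In cLTP slices 26 were called higher and 1, again B2m, lower, against 18.6% and 17.3% of all genes. 22 members were called higher in both, against 11.6% of all genes. Among the fitted libraries, those of 3 hr lay above those of 1 hr without overlap for 29 members in controls, against 31.5% of all genes, and for 22 in cLTP slices, against 23.6%. The median member log2 fold change was 0.65 in controls and 0.67 in cLTP slices, beside -0.02 and 0.00 over all genes. Control and cLTP slices share animals, so these are not independent observations. As the members were chosen with earlier results of these data known, their shares beside those of all genes are a description and not a test.

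Summed over the 35 members other than B2m, levels ran from 247 to 271 CPM in 1 hr controls, 244 to 284 in 1 hr cLTP, 358 to 412 in 3 hr controls and 351 to 430 CPM in 3 hr cLTP slices. Every 3 hr library thus lay above every 1 hr library. For 21 of the 23 members called higher in controls, the library left out of the fits, 1 hr control replicate 2, lay below every 3 hr control, but for 14 of the 23 it lay above both fitted 1 hr controls, at a median 0.19 of the way on the log2 scale from the 1 hr to the 3 hr controls. With it in the fit 24 were called higher. As slices were measured whole, fewer cells of a type and less RNA per cell cannot be told apart.

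**Figure D3:**
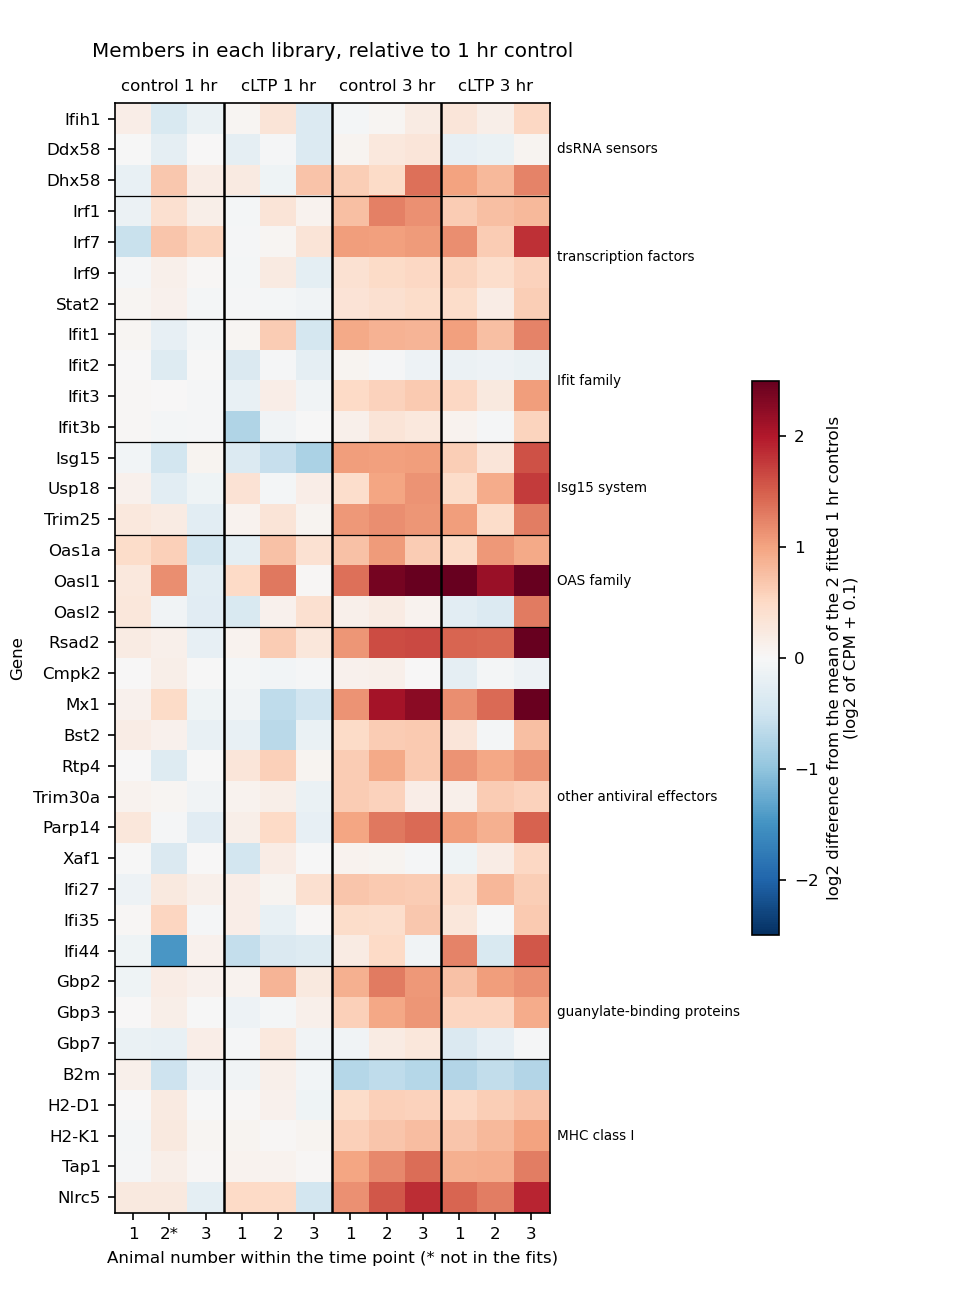
Level of the 36 members (rows, by role) in the 12 libraries (columns), as the log2 difference from the mean of the 2 fitted 1 hr controls, with 0.1 CPM added. The darkest colour also covers larger differences. Rows are red in the 3 hr columns for most roles, B2m is blue there, and 3 hr cLTP replicate 3 is the highest library in 21 of the 36 rows.

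Among the double-stranded RNA sensors, only Dhx58 (LGP2), which regulates the other two, was called. It stood at 0.465, 0.931 and 0.640 CPM in 1 hr controls (the second value being the library left out), 0.656, 0.501 and 0.964 in 1 hr cLTP, 0.887, 0.806 and 1.58 in 3 hr controls and 1.21, 1.03 and 1.43 CPM in 3 hr cLTP slices. The rise was 0.95 ± 0.37 in controls (adjusted p = 0.0629) and 0.75 ± 0.31 in cLTP slices (adjusted p = 0.0722). The call in controls was lost without 3 hr control replicate 3 (0.60, adjusted p = 0.244), without 1 hr control replicate 1 (0.253) or 3 (0.114), and with the left-out library included (0.139). The call in cLTP slices was lost without 3 hr replicate 1 (adjusted p = 0.126) or 3 (0.181) or 1 hr replicate 1 (0.144) or 2 (0.202). Both were lost with offsets for GC content and length (0.81 and 0.63, adjusted p = 0.102 and 0.119). Ifih1 and Ddx58 were measured at 4.80 to 9.05 and 7.34 to 11.6 CPM and were not called (0.04 ± 0.18 and 0.19 ± 0.12 in controls, 0.29 ± 0.16 and 0.08 ± 0.11 in cLTP slices). Ifih1 was called higher in cLTP slices in 4 of 23 alternatives, among them without 1 hr cLTP replicate 2 (0.49, adjusted p = 0.0388) and without 3 hr cLTP replicate 2 (0.38, adjusted p = 0.0870). Ddx58 was called higher in controls with the left-out library included (0.29, adjusted p = 0.0724).

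All 4 transcription factors rose in both treatments. Irf1 (chr11:53770014-53778374), the factor that carries interferon gamma signals to MHC class I genes, was measured at 24.5, 35.97 and 30.4 CPM in 1 hr controls, 26.2, 34.2 and 29.04 in 1 hr cLTP, 45.7, 65.6 and 60.6 in 3 hr controls and 42.6, 46.1 and 48.0 CPM in 3 hr cLTP slices. All 3 hr libraries lay above all 1 hr libraries. The rise was 1.03 ± 0.15 in controls (adjusted p = 0.000336) and 0.59 ± 0.13 in cLTP slices (adjusted p = 0.00351). Irf9 and Stat2, which are part of the ISRE-binding complex, rose by less. Irf9 (chr14:55603571-55610030) moved from 9.61, 10.7 and 10.1 CPM in 1 hr controls and 9.48, 11.5 and 8.28 in 1 hr cLTP to 12.9, 13.7 and 14.2 in 3 hr controls and 14.5, 13.4 and 14.8 CPM in 3 hr cLTP slices (0.43 ± 0.12 and 0.53 ± 0.11, adjusted p = 0.0156 and 0.00207). Stat2 (chr10:128270559-128292849) moved from 19.9, 20.8 and 18.7 CPM in 1 hr controls and 18.7, 18.5 and 18.1 in 1 hr cLTP to 24.3, 25.4 and 26.5 in 3 hr controls and 26.5, 22.03 and 29.4 CPM in 3 hr cLTP slices (0.37 ± 0.11 and 0.47 ± 0.10, adjusted p = 0.0195 and 0.00208). For both genes the 3 hr libraries lay above the 1 hr libraries without overlap, but the call of Stat2 in controls was lost without 1 hr control replicate 3 (adjusted p = 0.107), a fit in which the lone 1 hr control is assumed to vary like the other groups. Irf7, the amplifier of type I interferon production, was low (0.594 to 3.54 CPM) and rose by 0.97 ± 0.36 and 1.22 ± 0.32, and its call in controls was lost without 3 hr control replicate 3 (adjusted p = 0.106) or 1 hr control replicate 1 (0.53, adjusted p = 0.360), and with offsets for GC content and length (0.76, adjusted p = 0.110), while without 1 hr control replicate 3 it stood at 1.76.

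Ifit proteins bind viral RNA ends and block translation, and their 4 genes lie next to each other on chromosome 19. Ifit1 (chr19:34640871-34650009) was measured at 6.41, 5.36 and 5.97 CPM in 1 hr controls, 6.39, 9.63 and 4.54 in 1 hr cLTP, 12.03, 11.4 and 11.2 in 3 hr controls and 12.6, 10.5 and 14.7 CPM in 3 hr cLTP slices. It rose in both treatments, by 0.87 ± 0.23 (adjusted p = 0.0108) and 0.87 ± 0.20 (adjusted p = 0.00419). Ifit3 (chr19:34583531-34588731) was at 8.16, 8.11 and 7.91 CPM in 1 hr controls, 7.02, 9.07 and 7.53 in 1 hr cLTP, 11.4, 11.98 and 12.7 in 3 hr controls and 11.6, 9.52 and 16.8 CPM in 3 hr cLTP slices, a rise of 0.55 ± 0.19 and 0.66 ± 0.17 (adjusted p = 0.0395 and 0.00763). Without 3 hr cLTP replicate 3 the latter was 0.41 (adjusted p = 0.0217). The call in controls was lost without either of the fitted 1 hr controls (adjusted p = 0.111 without replicate 1 and 0.152 without replicate 3). Ifit3b (chr19:34607970-34613401) was at 4.68, 4.43 and 4.45 CPM in 1 hr controls, 2.67, 4.30 and 4.56 in 1 hr cLTP, 4.98, 5.75 and 5.49 in 3 hr controls and 4.84, 4.49 and 6.76 CPM in 3 hr cLTP slices. It was called only in cLTP slices (0.46 ± 0.19, adjusted p = 0.0767), and not without 3 hr cLTP replicate 3 (0.27, adjusted p = 0.296) or 1 hr cLTP replicate 1 (0.28, adjusted p = 0.229), nor in a fit of the cLTP groups alone (0.47, adjusted p = 0.135). In controls it stood at 0.22 ± 0.21. Ifit3 shares 31.7% of its 100-base windows with Ifit3b, which shares 27.4% of its own, so counts of this pair may be split or lost between them. Ifit2 showed no such rise (12.2 to 16.5 CPM over all libraries; -0.05 ± 0.10 and 0.03 ± 0.09).

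The 3 genes of the Isg15 system all rose. Isg15 is a ubiquitin-like modifier, Usp18 removes it from proteins and restrains the interferon receptor, and Trim25 is a ubiquitin ligase that activates RIG-I. Isg15 (chr4:156199424-156200818) was at 0.491, 0.352 and 0.545 CPM in 1 hr controls, 0.389, 0.317 and 0.259 in 1 hr cLTP, 1.17, 1.16 and 1.17 in 3 hr controls and 0.841, 0.660 and 1.77 CPM in 3 hr cLTP slices. The 3 hr controls were very close to each other, while the 3 hr cLTP libraries spread widely. The rise was 1.13 ± 0.38 (adjusted p = 0.0360) and 1.72 ± 0.36 (adjusted p = 0.00256), from 11 to 23 counts a library at 1 hr, and the call in controls was lost without 1 hr control replicate 1 (adjusted p = 0.143) or 3 (adjusted p = 0.124). Trim25 (chr11:88999376-89020293) was at 4.44, 4.26 and 3.03 CPM in 1 hr controls, 3.91, 4.62 and 3.83 in 1 hr cLTP, 7.94, 8.39 and 8.001 in 3 hr controls and 7.64, 5.08 and 9.10 CPM in 3 hr cLTP slices. It rose by 1.09 ± 0.22 (adjusted p = 0.00225) and 0.80 ± 0.19 (adjusted p = 0.00513) without overlap. Usp18 (chr6:121245906-121270917) was at 0.517, 0.373 and 0.427 CPM in 1 hr controls, 0.632, 0.448 and 0.541 in 1 hr cLTP, 0.671, 1.02 and 1.149 in 3 hr controls and 0.682, 0.989 and 1.82 CPM in 3 hr cLTP slices. Its rise of 0.98 ± 0.41 and 1.07 ± 0.35 (adjusted p = 0.0845 and 0.0288) was not called in cLTP slices without 3 hr replicate 3 (0.61, adjusted p = 0.171). In controls it was not called without 3 hr replicate 2 (adjusted p = 0.152) or 3 (0.211) or 1 hr replicate 1 (0.163) or 3 (0.294), nor by limma-voom (0.122).

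The oligoadenylate synthetase (OAS) family makes a short RNA messenger that activates RNase L. Oasl1 lacks this activity. Oasl1 (chr5:114923240-114937915), known to limit Irf7 translation, was at 0.517, 1.06 and 0.332 CPM in 1 hr controls, 0.632, 1.19 and 0.423 in 1 hr cLTP, 1.23, 2.59 and 3.31 in 3 hr controls and 2.93, 2.20 and 4.09 CPM in 3 hr cLTP slices. With 2.47 ± 0.50 (adjusted p = 0.00273) in controls and 2.03 ± 0.40 (adjusted p = 0.00154) in cLTP slices, it had the largest rise among members with a mean of at least 1 CPM, although the library left out, at 1.06 CPM, came close to the lowest 3 hr control at 1.23 CPM. Oasl2 was measured at 0.729 to 1.32 CPM in 11 of the libraries and at 2.56 CPM in 3 hr cLTP replicate 3, and was not called (0.10 ± 0.46 and 0.36 ± 0.41). Oas1a, with 2 to 15 counts a library and 40.9% of its 100-base windows shared with Oas1g, was not called either (1.16 ± 0.60 and 0.74 ± 0.50), except in controls without 1 hr control replicate 1 (2.39, adjusted p = 0.0768).

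Of the 11 other antiviral effectors, 6 rose in controls and 8 in cLTP slices. Rsad2 (viperin; chr12:26442746-26456452), which makes a chain-terminating nucleotide, was at 2.56, 2.401 and 1.90 CPM in 1 hr controls, 2.36, 3.48 and 2.71 in 1 hr cLTP, 4.85, 7.04 and 7.09 in 3 hr controls and 6.18, 6.11 and 14.6 CPM in 3 hr cLTP slices. It rose by 1.48 ± 0.36 (adjusted p = 0.00811) and 1.63 ± 0.31 (adjusted p = 0.00126). Its neighbour Cmpk2 (chr12:26469204-26479837), which is often induced together with it, did not rise: it ranged from 16.6 to 21.4 CPM over all 12 libraries (0.05 ± 0.08 and -0.10 ± 0.07). Parp14 (chr16:35832874-35871544), an ADP-ribosyltransferase, was at 5.79, 4.66 and 3.86 CPM in 1 hr controls, 5.23, 6.75 and 4.09 in 1 hr cLTP, 9.48, 11.96 and 12.8 in 3 hr controls and 9.82, 8.88 and 13.4 CPM in 3 hr cLTP slices, with a rise of 1.22 ± 0.23 (adjusted p = 0.00188) and 0.98 ± 0.20 (adjusted p = 0.00228). Mx1 (chr16:97447035-97462907), a dynamin-like GTPase, had 6, 11 and 5 counts in 1 hr controls, 5, 2 and 3 in 1 hr cLTP, 19, 41 and 53 in 3 hr controls and 19, 24 and 46 counts in 3 hr cLTP slices, so every 3 hr library lay above every 1 hr library at very low level. The fitted rise of 2.47 ± 0.60 (adjusted p = 0.00753) and 3.06 ± 0.58 (adjusted p = 0.00128) rests on these few counts. Rtp4 and Ifi27 rose in controls by 0.75 and 0.63 and in cLTP slices by 0.74 and 0.39, Ifi27 from 13.5 to 19.5 CPM at 1 hr to 19.8 to 26.1 CPM at 3 hr. Ifi35 rose in controls by 0.54 ± 0.22 and was not called in cLTP slices (0.32 ± 0.20). Its call was lost without 3 hr control replicate 3 (adjusted p = 0.182), without 1 hr control replicate 1 (0.158) or 3 (0.218), with the left-out library included (0.34, adjusted p = 0.240) and with offsets for GC content and length (0.50, adjusted p = 0.1 after rounding). Without 3 hr cLTP replicate 2 it was called in cLTP slices (0.48, adjusted p = 0.0633). Bst2, Trim30a and Ifi44 were called in cLTP slices alone (0.73, 0.44 and 1.88). In controls they stood at 0.60 ± 0.27, 0.46 ± 0.22 and 0.26, where Bst2 was called in 10 and Trim30a in 8 of 23 alternatives, and none of the 3 was called for the change of the cLTP effect. The call of Bst2 was lost without 3 hr cLTP replicate 3 (adjusted p = 0.162) or 1 hr cLTP replicate 2 (adjusted p = 0.107). That of Trim30a was lost in 11 of 23 alternatives. Among these were DESeq2 (adjusted p = 0.105), limma-voom (0.12), the fit of the cLTP groups alone (0.119) and the fits without 3 hr cLTP replicate 2 (0.227) or 3 (0.209). Xaf1 was not called at 2.26 to 4.57 CPM. Rtp4 shared 11.2% of its 100-base windows with Gm45338 and Trim30a 4.8% with Trim30d.

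Guanylate-binding proteins are GTPases best known as interferon gamma targets, and Gbp2, Gbp3 and Gbp7 lie close together on chromosome 3. Gbp2 (chr3:142620602-142638008) rose from the 1 hr values given above to 27.2, 36.2 and 31.2 CPM in 3 hr controls and 24.4, 30.2 and 32.1 CPM in 3 hr cLTP slices, by 1.08 ± 0.20 (adjusted p = 0.00152) and 0.54 ± 0.17 (adjusted p = 0.0253). In cLTP slices the groups overlapped, since 1 hr cLTP replicate 2 was already at 26.2 CPM, and without that library the rise was 0.83. Gbp3 (chr3:142560026-142573209) was at 7.16, 7.91 and 7.11 CPM in 1 hr controls, 6.54, 6.91 and 7.83 in 1 hr cLTP, 10.9, 14.0 and 15.5 in 3 hr controls and 10.4, 10.4 and 13.6 CPM in 3 hr cLTP slices (0.89 ± 0.16 and 0.67 ± 0.14, adjusted p = 0.00131 and 0.00258). Gbp7, the neighbour of Gbp3, stood at 6.68 to 10.5 CPM and was not called (0.11 ± 0.15 and -0.27 ± 0.14), but without 3 hr cLTP replicate 3 it was called lower in cLTP slices (-0.35, adjusted p = 0.0878), as it was with a block on the number shared across time points (-0.27, adjusted p = 0.0653). Both Gbp3 and Gbp7 hold the ISRE core before the start, as printed above.

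In the MHC class I pathway the components split. H2-K1 (chr17:33996017-34000347), a heavy chain, was at 20.3, 24.6 and 21.4 CPM in 1 hr controls, 21.9, 21.1 and 21.9 in 1 hr cLTP, 31.6, 33.8 and 35.8 in 3 hr controls and 33.9, 36.8 and 41.7 CPM in 3 hr cLTP slices. It rose by 0.67 ± 0.10 (adjusted p = 0.000313) and 0.77 ± 0.08 (adjusted p = 3.9e-05), with narrow spread in each group. Tap1 (chr17:34187553-34197225), a subunit of the pump that brings peptides to these chains, was at 3.54, 3.99 and 3.70 CPM in 1 hr controls, 3.86, 3.85 and 3.69 in 1 hr cLTP, 7.27, 8.50 and 9.69 in 3 hr controls and 6.75, 6.84 and 8.89 CPM in 3 hr cLTP slices, a rise of 1.201 ± 0.16 (adjusted p = 0.000179) and 0.96 ± 0.14 (adjusted p = 0.000220). The second heavy chain, H2-D1, rose by 0.52 ± 0.09 and 0.58 ± 0.08, and Nlrc5, the transactivator of MHC class I genes, rose by 1.58 ± 0.31 and 1.36 ± 0.27 from 0.941 to 1.93 CPM at 1 hr.

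B2m (chr2:122147686-122153083) moved the other way. It was at 114, 73.3 and 96.1 CPM in 1 hr controls, 98.0, 114 and 100.2 in 1 hr cLTP, 63.95, 67.1 and 63.6 in 3 hr controls and 62.7, 68.4 and 63.2 CPM in 3 hr cLTP slices. The 6 libraries of 3 hr lay within 62.7 to 68.4 CPM, below every 1 hr library, among which the one left out was the lowest. The fall was -0.72 ± 0.08 in controls (adjusted p = 8.66e-05) and -0.70 ± 0.08 in cLTP slices (adjusted p = 3.86e-05), and it remained called with offsets for GC content and length, but at -0.37 (adjusted p = 0.0127) and -0.31 (adjusted p = 0.0169). B2m was not called for cLTP (0.00 ± 0.09 at 1 hr and 0.01 ± 0.06 at 3 hr).

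**Figure D4:**
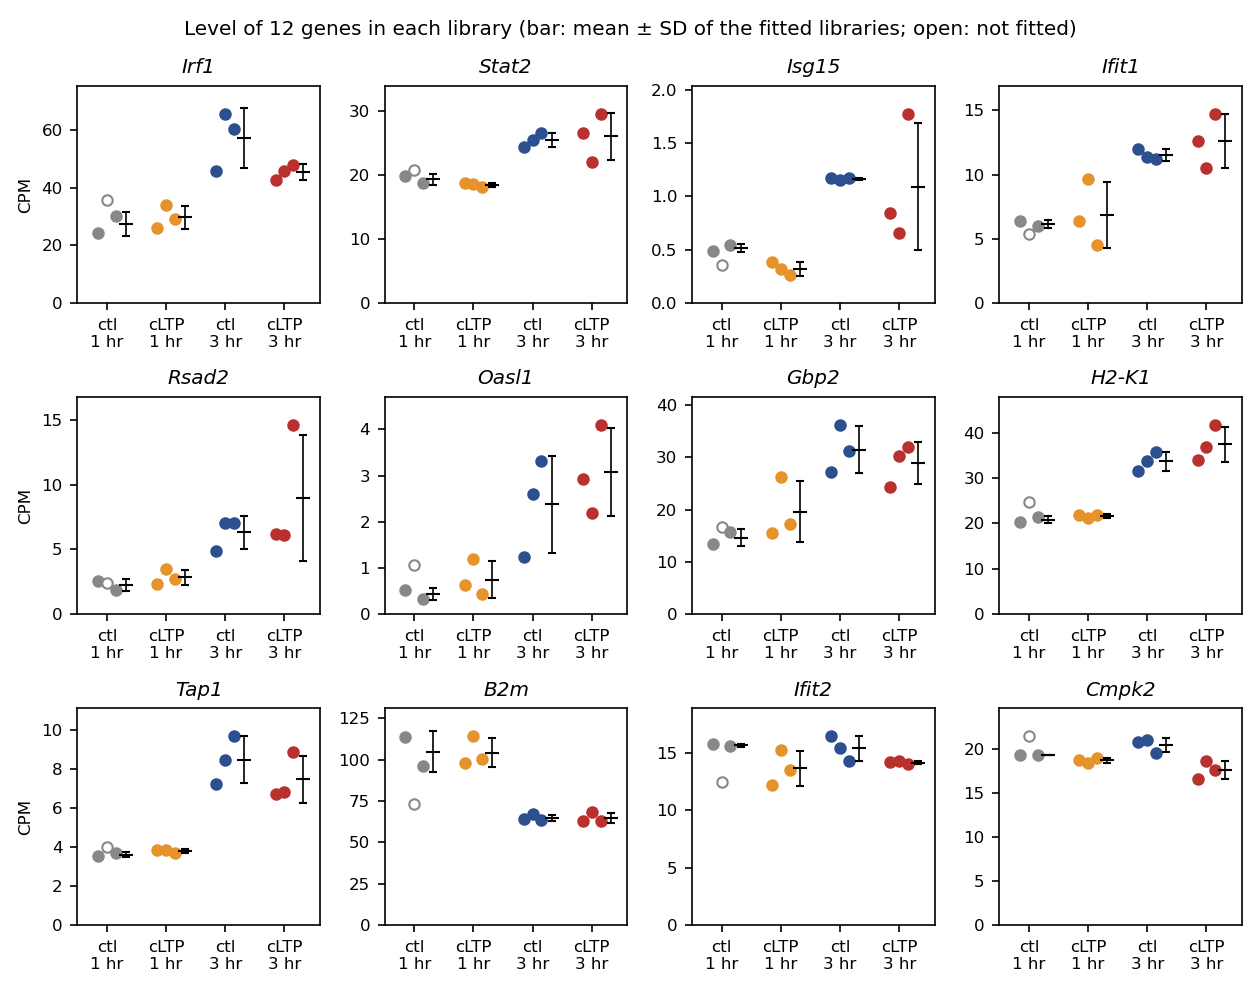
CPM of 12 members in each library, by group, with the mean ± SD of the fitted libraries beside the points; open points are the 1 hr control left out of the fits. 3 hr points lie above 1 hr points for Irf1, Stat2, Isg15, Ifit1, Rsad2, Oasl1, H2-K1 and Tap1 and below them for B2m, while for Ifit2 and Cmpk2 the ranges of 1 hr and 3 hr overlap.

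Other genes of the pathway were taken from lists of 125 genes, of which 123 were in the tables. 0 of 105 tested were called between cLTP and control at 1 hr, against 0.789% of all genes, and 2 of 106 at 3 hr, against 6.6%. These were Ifngr1, a chain of the interferon gamma receptor, at 9.50, 9.92 and 8.50 CPM after cLTP against 11.96, 12.4 and 11.1 CPM (-0.33 ± 0.09, adjusted p = 0.0842), and Psmb10, a catalytic subunit of the immunoproteasome, at 12.8, 14.2 and 15.3 against 17.0, 19.4 and 17.0 CPM (-0.33 ± 0.09, adjusted p = 0.0930). In both, the groups did not overlap, but among the 106 genes the same held for 19 that were lower, these 2 included, and 8 that were higher. The share of all genes was not counted here either. 0 of 108 were called for the change of the cLTP effect.

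With time, 25 of the 108 tested pathway genes rose and 14 fell in controls, against 16.1% and 16.8% of all genes, and 30 rose and 10 fell in cLTP slices, against 18.6% and 17.3%. Their median log2 fold change was 0.06 and 0.09. The smallest p among those that rose belonged to Stat3, a factor of the interleukin 6 pathway (0.73 ± 0.08 and 0.81 ± 0.07), Gbp2b (2.30 ± 0.28 and 1.95 ± 0.24) and, in controls, Mx2 (1.74 ± 0.21) or, in cLTP slices, the nonclassical class I gene H2-Q4 (1.34 ± 0.16). Gbp2b, a guanylate-binding protein, was at 2.48, 2.75 and 2.65 CPM in 1 hr controls and 8.44, 16.3 and 14.1 CPM in 3 hr controls. Among those that fell, the smallest p belonged to the proteasome activator Psme1 (-0.55 ± 0.09 and -0.61 ± 0.08) and the chaperone Calr, which loads class I chains (-0.32 ± 0.07 and -0.37 ± 0.06), followed by Samhd1 in controls (-0.41 ± 0.09) and Tlr7 in cLTP slices (-0.76 ± 0.14).

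The ligands were near the limit of detection. A floor of 3 counts a library corresponded to 0.0584 to 0.0792 CPM. Ifnb1, interferon beta, was measured at 0.0948 to 0.310 CPM in 1 hr and 0.250 to 0.633 CPM in 3 hr libraries and was not called (0.97 ± 0.55 and 0.99 ± 0.47, adjusted p = 0.198 and 0.116), and 8 of the 15 ligand and receptor genes, all of them ligands, never exceeded 3 counts. Receptors were present: Ifnar1 at 42.9 to 50.6 CPM and Ifnar2 at 9.98 to 12.2 CPM.

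Markers of cell types moved with time as well. Of 9 microglia markers, 7 were called lower at 3 hr in each treatment and all 9 had a negative estimate, and their sum ran from 331 to 360 CPM in 1 hr controls, 329 to 355 in 1 hr cLTP, 249 to 282 in 3 hr controls and 230 to 260 CPM in 3 hr cLTP slices. P2ry12, the purinergic receptor of resting microglia, fell most (-1.44 ± 0.12 and -1.40 ± 0.11). The sum of the 35 members other than B2m was thus higher at 3 hr, and B2m and these markers lower. Endothelial markers summed to 103 to 114 CPM in 1 hr controls and 91.0 to 96.1 CPM in 3 hr controls (3 of 6 called lower, 0 higher), against 88.7 to 93.3 and 90.2 to 109 CPM in cLTP slices (1 lower, 2 higher). Of the 4 markers of pericytes and smooth muscle, 2 were called lower in each treatment and 1, Kcnj8, higher in cLTP slices (0.47 ± 0.17), and of 5 oligodendrocyte markers 2 were called higher in each. In both treatments 1 of 5 neuronal markers was called lower (Snap25, -0.51 ± 0.08 and -0.39 ± 0.08) while the other 4 had positive estimates, and 1 of 5 astrocyte markers was called lower (Slc1a3, -0.29 ± 0.09 and -0.27 ± 0.08). Of 4 markers of pyramidal neurons, Neurod6 was called lower (-1.10 ± 0.12 and -0.92 ± 0.11) and Fibcd1 higher (0.40 ± 0.13 and 0.47 ± 0.11). Markers of blood leukocytes were at or near 0: Cd3e and Nkg7 had 0 counts in every library, 6 of 9 never exceeded 3 counts, and the 9 summed to at most 0.317 CPM. For the labelled tissue, 5 neuronal markers summed to 4599 to 6046 CPM, and 4 markers of dentate granule neurons were still detected at 117 to 218 CPM although the dentate gyrus had been trimmed. Of these 4, Calb2 was called lower with time in cLTP slices (-0.62 ± 0.15), and it was the only marker of any list called for cLTP, at 3 hr (-0.62 ± 0.12, adjusted p = 0.0312). The part of microglia and of the other cell types in the changes of the members was not tested.

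**Figure D5:**
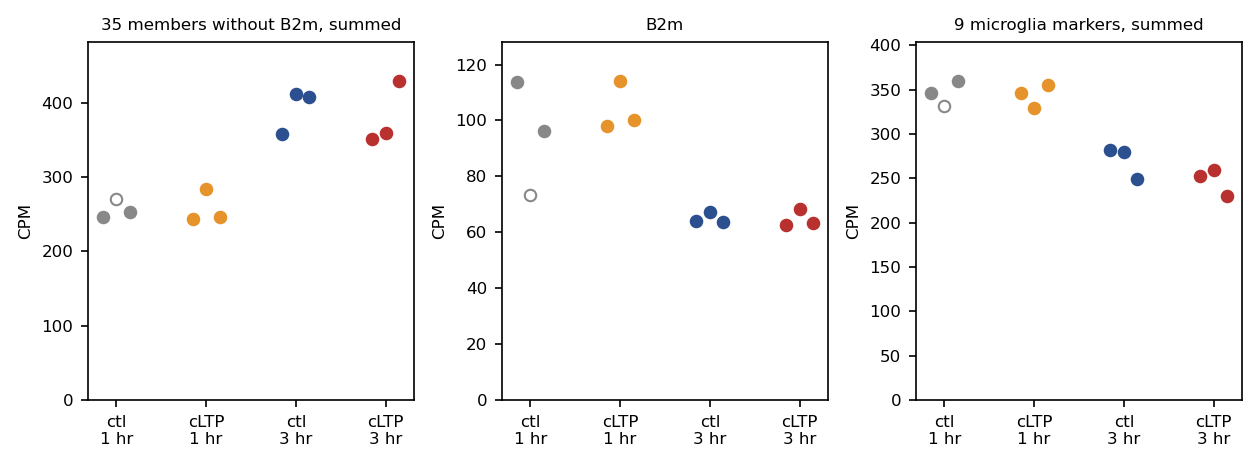
CPM in each library, by group, of the 35 members other than B2m in sum (left), of B2m (middle) and of 9 microglia markers in sum (right); open points are the 1 hr control left out. The left panel rises from at most 284 CPM at 1 hr to at least 351 CPM at 3 hr, while the other panels fall.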

How the data were processed

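The authors aligned paired-end reads of ribosomal RNA-depleted, stranded libraries to GRCm38/mm10 with STAR and deposited raw read counts per gene, made with Bioconductor packages, in 1 table a time point. Whether counting used strand is not stated, so genes that overlap others are uncertain. For its expression analysis the study kept only reads in coding regions. Whether the deposited counts are limited in this way is not known here, so levels per kilobase of exon are uncertain. The processing notes name DESeq2. IDs were matched to GENCODE M21 (40217 of 41091). Members and gene lists were chosen with earlier results of these data known.

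Library totals ran from 37118382 to 50815001 counts, and replicates differed by more than counting error (chi-square per degree of freedom 9.49 to 85.6). Counts were tested with edgeR 4.0.16 in R 4.3.3 (filterByExpr, TMM, quasi-likelihood F test, Benjamini-Hochberg over all genes). The calls required an adjusted p under 0.1 and, but for the change of effect, a fold change over 1.2, as in the methods of the study. 1 hr and 3 hr had separate cLTP fits (5 libraries at 1 hr, 6 at 3 hr), and time and the change of effect in 1 model of 11 libraries. CPM values were scaled by TMM over 12 libraries. SE is the log2 fold change divided by the square root of F. The fits were tested on simulated data.

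cLTP and control libraries pair by animal per the labels. Paired deviations from group means correlated at -0.015, -0.156 and 0.075 at 1 hr and 0.038, -0.028 and 0.218 at 3 hr, across genes. Alternatives were DESeq2 1.42.0, limma-voom (limma 3.58.1), other scalings, filters and thresholds, the animal block, the left-out library, leaving out each library and, chosen after seeing the data, offsets for GC content and length.

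Values in every library were given for up to 3 called members a role with the smallest p in any comparison, 19 of the 28 called, and other members by ranges. Pathway genes were named if called for cLTP or its change, and for time the 3 with the smallest p a direction. Cmpk2, Ifit2, Rtp4, Oasl2, the interferon ligands and the receptors were chosen after their values were seen. Proteins were not compared.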

Additional observations from a re-analysis of the deposited data

How the results depend on the processing

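The number of members called with time was between 18 and 26 in controls (24 as reported) and between 23 and 28 in cLTP slices (27 as reported) over all alternatives, the offsets for GC content and length giving 22 and 27. Of the 23 calls of a rise in controls, 16 were made under every alternative that tested the gene, and of the 26 in cLTP slices, 21 were (Mx1 and Ifi44 were not tested with at least 10 counts in every library, nor Ifi44 in the fit of the cLTP groups alone), and every one of these rises stayed positive. At 1 hr the count for cLTP was 0 except when genes of low count were kept, with 1 (Gbp2). At 3 hr it was 0 except with the replicate block, with 3, and when a library was left out, which gave 0 to 3. The cause of these changes was not tested. The change of the cLTP effect was called for 0 members under every alternative run. The animal block changed no other call of the cLTP comparisons; a block on the number shared across time points, which marks different animals as taken here, gave 25 and 28 calls with time. Depth limits Mx1, Ifi44 and Oas1a, with at most 53, 33 and 15 counts in any library, and the interferon ligands. The offsets for GC content and length reduced the fall of B2m to -0.37 in controls and -0.31 in cLTP slices and raised the rise of Ifit3b in cLTP slices to 0.70.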

Other observations

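Some genes of the wider interferon lists, chosen after their values were seen, moved with time by more than most members. Ifi47, an immunity-related GTPase, was at 0.207, 0.497 and 0.284 CPM in 1 hr controls and 1.08, 2.11 and 1.64 CPM in 3 hr controls (2.66 ± 0.37, adjusted p = 0.000235), and rose by 2.06 ± 0.30 in cLTP slices (adjusted p = 0.000249). H2-Q4, a class I gene, was at 3.798, 5.77 and 4.12 CPM in 1 hr controls and 8.89, 10.6 and 11.9 CPM in 3 hr controls (1.37 ± 0.19, adjusted p = 0.00026), although 19.1% of its exonic bases are shared with Gm11131. The interferon gamma ligand Ifng had at most 1 count in any library.

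The catalytic subunits of the immunoproteasome, whose replacement of the constitutive subunits changes the peptides offered on class I molecules, did not move as a group. Psmb8 was called higher with time in controls (0.58 ± 0.20, adjusted p = 0.037) and in cLTP slices (0.44 ± 0.18, adjusted p = 0.0689), Psmb9 was not called at 0.185 to 0.745 CPM, and Psmb10 was not called with time (0.29 ± 0.15 and 0.03 ± 0.13).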
